A study of Mus musculus with 2 samples.

Results

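Distal convoluted and connecting tubule cells were the tubule cells in which the RNA of Slc12a3, Trpm6, Calb1 and Trpv5 outweighed that of the neighbouring nephron segments. Slc12a3 encodes the thiazide-sensitive sodium chloride cotransporter, Trpm6 a magnesium channel, Calb1 the calcium-binding protein calbindin-D28k, and Trpv5 an apical calcium channel. A barcode was a member when it carried 3000 to 150000 UMIs (unique molecular identifiers, each standing for 1 captured transcript) with at most 55% from mitochondrial genes. The summed UMIs of the 4 genes had to reach 10 and 0.05% of all UMIs of the barcode. They also had to be at or above Slc12a1 plus Umod, which mark the thick ascending limb (TAL), above Lrp2 plus Slc34a1 of the proximal tubule (PT), and above Aqp2 plus Aqp3 of the collecting duct principal cells. No UMI of Ptprc, the leukocyte gene that encodes CD45, was allowed. In all, 1158 of 30367 barcodes were members, of 12859 within the UMI and mitochondrial limits.

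Kidneys of wildtype male C57BL/6J mice aged 19 weeks were digested to single cells for scRNAseq with the 10x Genomics 3′ chemistry. The control library came from a contralateral, uninjured kidney, and the ischemia library from a kidney that underwent 27 min of ischemia and 24 h of reperfusion (I/R). There was 1 library of each, so no test between the conditions was possible, and every interval below covers counting error only. The labels do not say whether both kidneys came from the same mouse, and kidney, mouse and library preparation cannot be told apart from the injury.

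The distal convoluted tubule (DCT) reabsorbs sodium chloride through Slc12a3 under the control of the WNK and SPAK kinases, and it is the segment that sets the final magnesium loss in the urine. The connecting tubule (CNT) that follows takes up calcium through an apical channel, carries it across the cell on calbindins and extrudes it through a sodium-calcium exchanger and calcium pumps, and it also reabsorbs sodium through the epithelial sodium channel ENaC. Both segments respond to parathyroid hormone.

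The control library held 739 member cells among 6862 barcodes within the limits, 10.8% (95% Clopper-Pearson interval 10.0 to 11.5). The ischemia library held 419 among 5997, 6.99% (6.35 to 7.66). Because the rule counted the UMIs of its own 4 genes, fewer distal cells and less of these transcripts per cell cannot be told apart here. Before the clauses on the other segments and Ptprc, 888 control and 573 ischemia barcodes met the minimum, of which 149 and 154 then failed at least 1 other clause. Members accounted for 13915582 of the 142686238 UMIs of the control library and for 9162717 of the 142959737 UMIs of the ischemia library. The median member had 16658 UMIs and 3624 genes in control and 20890 UMIs and 4181 genes in ischemia, so the ischemia cells were the deeper ones. The median mitochondrial share was 29.7% in control and 27.3% in ischemia, and 480 control and 248 ischemia members had more than 25%. Although 88 barcodes occurred in both libraries, 0 of them were members.

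The members were chosen by the UMIs of the 4 genes, whose levels are given as a description. Slc12a3 stood at 3600 CPM (counts per 1000000, the UMIs of a gene summed over the member cells of a library and scaled to 1000000 UMIs of these cells) in control and 2723 in ischemia. Trpm6 stood at 267 and 189 CPM. Calb1 stood at 2875 and 753 CPM, the widest gap of the 4. Trpv5 stood at 78.0 and 173 CPM and was the only one of the 4 that was higher in the ischemia library. Per cell, the median of the 4 genes together was 93 UMIs in control and 58 in ischemia. Members with 10 to 12 of these UMIs, just inside the minimum, numbered 31 in control and 25 in ischemia, while 30 and 16 barcodes with 7 to 9 fell just outside it.

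**Figure D1:**
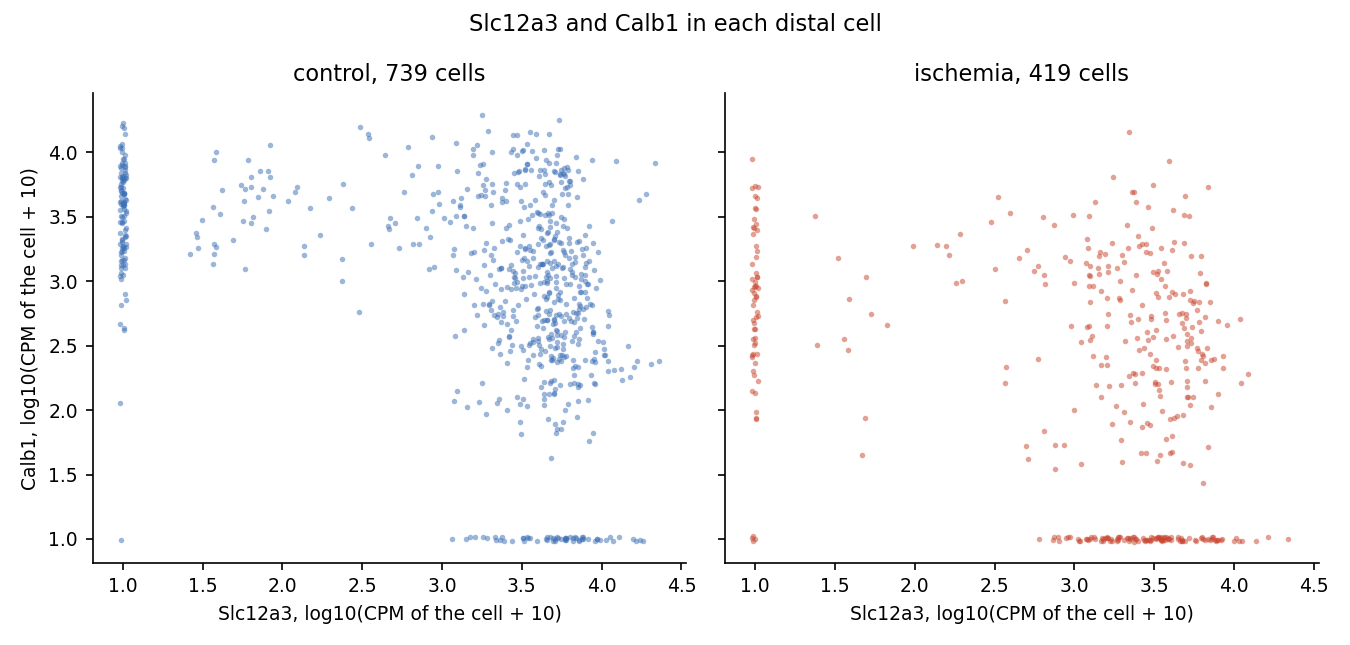
Slc12a3 (x axis) against Calb1 (y axis) in each member cell, both as log10 of the cell's own CPM plus 10, for the 739 control cells (left) and the 419 ischemia cells (right); points at 1 on an axis are cells without a UMI of that gene. Cells with Slc12a3 alone, with both genes and with Calb1 alone are present in each library, and the ischemia cells lie lower on the Calb1 axis (median 5 against 19 Calb1 UMIs per cell).

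Between the libraries, 10097 genes had at least 100 UMIs over both and were compared. Of these, 494 (4.89%) were at least 2-fold higher in the ischemia library and 386 (3.82%) at least 2-fold lower, and 9217 lay between. Lower genes outnumbered higher ones under 5 alternatives, with 294 higher and 365 lower in cells of at most 25% mitochondrial UMIs, 166 and 186 in cells thinned to 3000 UMIs, 413 and 476 under median-ratio scaling, 487 and 502 without the 5 richest cells per gene, and 252 and 358 with the minimum in control alone, described next. Slc12a1, Umod, Lrp2, Slc34a1, Aqp2 and Aqp3 were capped by the rule, so their levels in members are a description only, and without them 494 of 10091 genes were higher and 382 lower. A gene scarce in control reaches the minimum only if it is abundant in ischemia, so counts were also made over the 8674 genes with at least 100 UMIs in control alone, of which 252 (2.91%) were higher and 358 (4.13%) lower. The median gene had a log2 ratio of ischemia to control of 0.10, against which the list medians below should be read. Higher and lower below mean ratios of at least 2 and at most 0.5 and carry no test, and paired values give control first and ischemia second. The lists were chosen with earlier results of these data known.

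**Figure D2:**
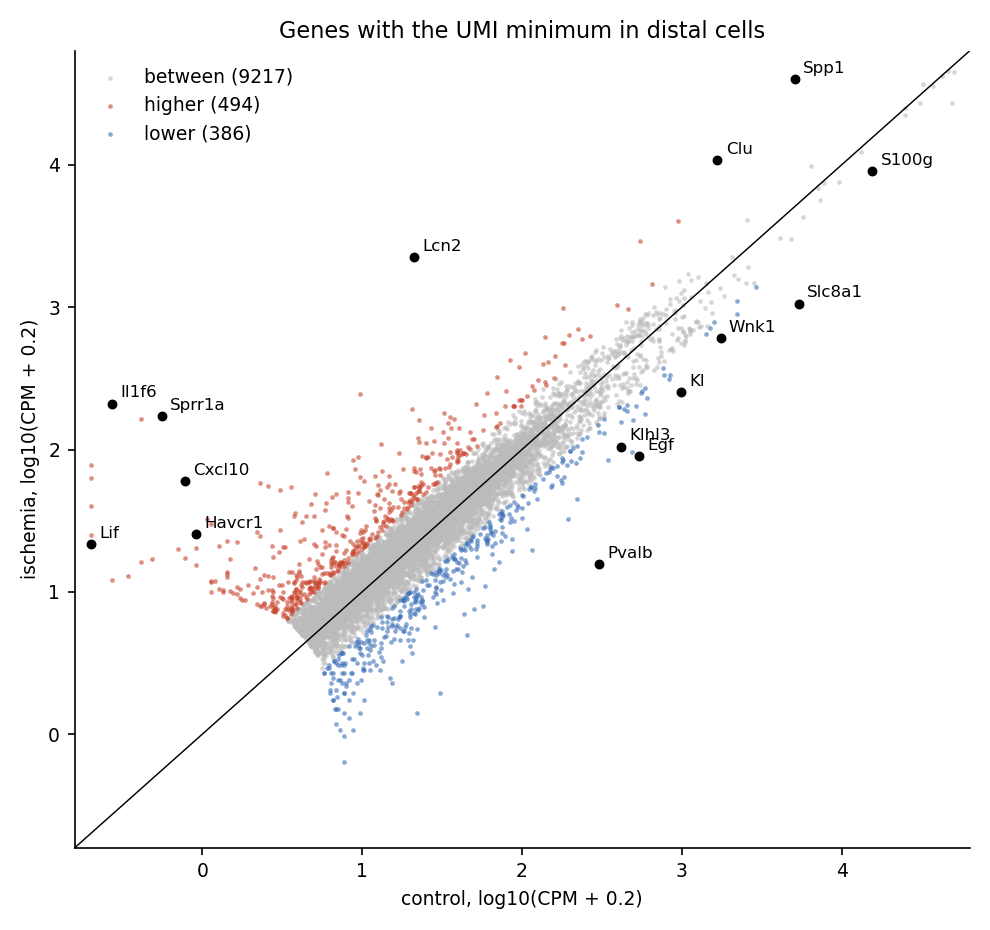
Each point is 1 of the 10097 genes with at least 100 UMIs, at its control level (x axis) and ischemia level (y axis) in the member cells, both as log10 of CPM plus 0.2. Red points are the 494 genes at least 2-fold higher in ischemia, blue points the 386 at least 2-fold lower, grey points the 9217 between, and black points are genes described in the text. Il1f6, Sprr1a, Cxcl10 and Lif lie at the left edge, near no control signal, while Pvalb, Egf, Klhl3 and Slc8a1 lie below the diagonal.

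Other segments and cell types were checked with marker lists. The member cells carried RNA of the proximal tubule throughout: Kap, the androgen-regulated PT transcript that was the most abundant of its list, had UMIs in 100% of the control members (772 CPM) and in 99.5% of the ischemia members (420 CPM). PT cells themselves, gated in the same way on Lrp2 plus Slc34a1, held Kap at 9782 and 8805 CPM. The 10 PT markers together stood at 1606 CPM in control members and 698 CPM in ischemia members. Of the 10, 8 were at least 2-fold lower, against 3.82% of all genes. Without Slc34a1 and Lrp2, which the rule capped, 6 of 8 were lower. The ratio of Kap was 0.54 in the members, 0.38 in TAL, 0.49 in principal and 0.90 in PT cells. The part of RNA from PT cells in the member levels was not tested. Intercalated cell markers, led by Atp6v1g3, summed to 543 and 213 CPM. Of the 8 genes of this list 6 were lower, against 3.82% of all genes. The UMIs of the list were concentrated in 41 control and 14 ischemia members with at least 10 such UMIs. These members held 96.4% and 94.4% of them. Endothelial markers summed to 19.8 and 26.0 CPM, macrophage markers to 12.3 and 17.5 CPM, and neutrophil markers to 1.22 and 5.57 CPM. Lymphocyte markers summed to 2.23 and 0.11 CPM, erythroid markers to 1.29 and 0.98 CPM, urothelial markers to 0.65 and 0.65 CPM, and podocyte markers to 7.62 and 7.64 CPM. Of the 7 lymphocyte markers, 4 were at 0 in control and 6 in ischemia. Pericyte and fibroblast markers summed to 14.6 and 45.6 CPM and were led by Acta2, of which 5 ischemia cells held 94.0%. Of these 8 markers, 3 had the minimum and all 3 were higher. Thin limb markers, led by Cryab, summed to 139 and 219 CPM, with 3 of 6 higher and 2 lower. Of all genes, 4.89% were higher and 3.82% lower. TAL markers summed to 2187 and 1738 CPM, led by Umod at 901 and 910 CPM, and principal cell markers to 720 and 441 CPM, led by Hsd11b2. Of 6 TAL and 6 principal cell markers compared, 2 each were lower, among them Slc12a1 and Aqp3, which the rule capped.

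In the control library, the members carried further genes that the rule did not use. Of the 15 genes with the highest ratio of their CPM in distal cells to the highest CPM among TAL, principal and PT cells, 13 were not rule genes. Slc8a1, the sodium-calcium exchanger, was 13.6-fold above the next class, Pvalb, the calcium-binding protein parvalbumin of the early DCT, 22.1-fold, and Klhl3, the adaptor that targets WNK kinases for degradation, 11.6-fold. The other 10 had at most 30 UMIs in the class with the next highest level, so that their folds are imprecise and are not printed. They were the transcription factor gene Sall3, the serotonin receptor gene Htr3a, the lymphatic growth factor gene Vegfd, the leukotriene C4 synthase gene Ltc4s, Fgf13, Lrrc52, Pdlim1, Lpo, Apobec2 and the antisense transcript Gm33051. Of the 13, Slc8a1, Pvalb, Klhl3, Fgf13, Lrrc52 and Vegfd were at least 2-fold lower after I/R, and Ltc4s and Lpo at least 2-fold higher. Of all genes, 3.82% were lower and 4.89% higher. Because the 13 were chosen by their control level, their ratios are a description only.

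Genes of DCT identity were lower as a group. Of 20 genes of the list, 11 were at least 2-fold lower (55% against 3.82% of all genes), 0 were higher, and the median log2 ratio was −1.07. Pvalb stood at 305 CPM (95% Poisson interval 296 to 315) in control and 15.4 CPM (13.0 to 18.2) in ischemia, a ratio of 0.050 (0.042 to 0.060). It had the lowest ratio of the list. Egf, the magnesium-regulating growth factor made in the distal nephron, stood at 540 and 89.9 CPM, a ratio of 0.17 (0.15 to 0.18). Klhl3 stood at 416 and 105 CPM, a ratio of 0.25 (0.23 to 0.27). The monocarboxylate transporter gene Slc16a7, the membrane protein gene Abca13, the muscle phosphoglycerate mutase gene Pgam2, the magnesium-related gene Cnnm2, the homeobox gene Emx1, the chloride channel subunit gene Bsnd, Tmem52b and Wnk4 made up the other 8, with ratios from 0.30 to 0.48. Bsnd and Tmem52b passed 0.5 (0.52 and 0.55) when the ischemia cells were weighted to the control mix of Slc12a3 shares described later. Not all of the list was lower. The potassium channel gene Kcnj16 stood at 399 and 394 CPM, and the DCT transcription factor Tfap2b at 138 and 159 CPM, a ratio of 1.15 (1.07 to 1.23).

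In the list of sodium chloride transport and WNK-SPAK control, 5 of 13 genes were lower (Wnk1, Wnk4, Klhl3, Kcnj1 and Ppp1r1a), 38.5% against 3.82% of all genes, and 0 higher, with a median log2 ratio of −0.56. Wnk1, whose kidney-specific form is made in the DCT, stood at 1749 and 609 CPM, a ratio of 0.35 (0.34 to 0.36). These 3′ counts do not separate the kidney-specific form from the full-length kinase. Wnk4 stood at 220 and 105 CPM, a ratio of 0.48 (0.44 to 0.51), which was 0.52 in cells of at most 25% mitochondrial UMIs, 0.53 in thinned cells and 0.51 in cells with the 4 rule genes at no less than 0.1% of UMIs. Stk39, which encodes SPAK, stood at 208 and 141 CPM, a ratio of 0.68 (0.63 to 0.72), while Oxsr1, its paralog, stood at 15.3 and 24.4 CPM and Cul3, the scaffold that works with Klhl3, at 103 and 113 CPM. The potassium channel gene Kcnj1 (ROMK; 454 and 185 CPM) and the phosphatase inhibitor gene Ppp1r1a (513 and 203 CPM) were the remaining lower genes.

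Of the calcium handling genes, the basolateral exchanger was lower and the calcium pumps lay between the limits. Slc8a1 had 75187 UMIs in control and 9696 in ischemia, or 5403 and 1058 CPM, a ratio of 0.20 (0.19 to 0.20). Kl, which encodes the hormone co-receptor klotho, stood at 991 and 252 CPM, a ratio of 0.25 (0.24 to 0.27). S100g, which encodes calbindin-D9k, stood at 15602 and 9042 CPM, a ratio of 0.58 (0.57 to 0.58), but the ratio was 1.56 and 1.14 in members with Slc12a3 shares (described later) above 80% and of 20 to 80%, and 0.57 below 20%. The plasma membrane calcium pump genes differed less, with Atp2b1 at 87.4 and 99.2 CPM and Atp2b4 at 114 and 70.3 CPM. The parathyroid hormone receptor gene Pth1r was on the other side, at 199 and 351 CPM, a ratio of 1.77 (1.68 to 1.86). In all, 3 of 13 genes of the list were lower (23.1% against 3.82% of all genes), 0 higher, and the median log2 ratio was −0.66. In the magnesium list, 3 of 11 genes were lower (Egf, Cnnm2 and Slc41a3), 27.3% against the same 3.82%, and 0 higher, with Trpm7, a channel related to Trpm6, at 455 and 268 CPM and the EGF receptor gene Egfr at 24.4 and 47.1 CPM.

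The ENaC genes differed by less than 2-fold, as did Atp1b1, the beta subunit of the sodium pump (ratio 0.75), and Fxyd2, its small regulatory subunit (0.76). Of 12 mineralocorticoid and ENaC genes, 0 were higher and 0 lower, and the median log2 ratio was −0.23. Scnn1b and Scnn1g, the beta and gamma subunits of ENaC, had ratios of 1.01 (0.93 to 1.09) and 0.84 (0.78 to 0.92), and Scnn1a, the alpha subunit, 0.54 (0.50 to 0.57). The ratio of Scnn1b differed with the Slc12a3 share, as given later. Of 15 CNT identity genes with the minimum, 3 were lower (Slc8a1, Kl and Avpr2), 20.0% against 3.82% of all genes, and 0 higher. The ratio of Avpr2, 0.46, was 0.75 in thinned cells, 0.62 with the control mix and 0.54 without cells rich in intercalated markers. Of 14 nephron transcription factors, Emx1 and Lhx1 were lower and Pax8, at 30.4 and 66.4 CPM, was higher (ratio 2.18, and 1.86 in cells of at most 25% mitochondrial UMIs). This was 14.3% lower and 7.14% higher, against 3.82% and 4.89% of all genes. Among 10 junction genes, Cldn4 (16.9 and 94.8 CPM), Cldn3 (7.90 and 42.2 CPM) and Cldn7 (125 and 306 CPM), which encode tight junction claudins, were higher and Cldn10 (16.5 and 6.22 CPM) was lower, or 30.0% and 10.0% of the list against 4.89% and 3.82% of all genes. The ratio of Cldn10, 0.38, was 0.59 in thinned cells.

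Injury genes were higher almost throughout. Of 28 genes 25 had the minimum, 23 of them at least 2-fold higher and 0 lower. Of the 18 with the minimum in control alone, 16 were higher (88.9% against 2.91% of all such genes), with a median log2 ratio of 2.12. Spp1, which encodes osteopontin, stood at 5091 and 39930 CPM, a ratio of 7.84 (7.78 to 7.91). Clu, the extracellular chaperone clusterin, stood at 1668 and 10820 CPM, a ratio of 6.49 (6.40 to 6.58). Lcn2, which encodes the iron-siderophore binding protein NGAL used as a tubular injury marker, stood at 20.8 and 2251 CPM, a ratio of 108 (96.5 to 122). Havcr1, which encodes KIM-1, stood at 0.72 and 25.2 CPM, a ratio of 35.1 (18.7 to 74.1). In PT cells, the usual site of Havcr1, it stood at 6.72 and 400 CPM. The keratin genes Krt8 (83.5 and 427 CPM) and Krt18 (60.1 and 248 CPM), the transcription factor genes Sox4 (51.5 and 207 CPM) and Sox9 (10.8 and 43.4 CPM), and the TWEAK receptor gene Tnfrsf12a (22.5 and 161 CPM) were also higher. Krt7 and Cd44, with ratios of 1.34 and 1.16, were the 2 genes of the list between the limits. Sprr2f had 0 UMIs in control and 579 in ischemia, at least 293-fold higher against a floor of 3 counts, but 72.2% of these UMIs were in 5 cells.

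Several cytokine and chemokine genes with few or no control UMIs had UMIs in a minority of the ischemia members, Ccl20 in 8.59%, Il1rn in 7.88%, Lif in 10.7% and Cxcl10 in 13.6%. Of 20 genes of the list 11 reached the minimum and were at least 2-fold higher, but 9 of the 11 had under 100 UMIs in control, so nothing is read from that count. Only Spp1 and Cx3cl1 had 100 UMIs in control. Cxcl10, an interferon-inducible chemokine, had 8 UMIs in control and 549 in ischemia, or 0.57 and 59.9 CPM, a ratio of 104 (52.5 to 243). Lif, a cytokine of the IL-6 family, had 0 and 197 UMIs, at least 99.7-fold higher against the floor. Ccl20, a chemokine for CCR6-bearing cells, had 0 and 711 UMIs, at least 360-fold higher, and Il1rn, which encodes the IL-1 receptor antagonist, 0 and 228, at least 115-fold higher. These signals were concentrated in few cells, since 5 ischemia cells held 76.0% of the Ccl20, 57.5% of the Il1rn, 47.4% of the Cxcl10 and 44.7% of the Lif UMIs. Cxcl16 and Cx3cl1, both transmembrane chemokine genes, were spread more evenly, with 14.7% and 7.47% in the 5 richest cells, and stood at 5.82 and 68.3 CPM and at 23.9 and 57.0 CPM. In cells of at most 25% mitochondrial UMIs the ratios of Cx3cl1 and Il34 were 1.99 and 1.60. Il6 and Tnf had 0 UMIs in control and 5 and 8 in ischemia.

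NF-kB feedback genes were higher in 11 of 17 (64.7% against 4.89% of all genes) and lower in 0. Of the 11 with the minimum in control alone, 6 were higher (54.5% against 2.91%), with a median log2 ratio of 1.01. Nfkbiz, Myd88 and Nfkb1 had ratios of 1.70, 1.86 and 1.84 in cells of at most 25% mitochondrial UMIs. Icam1, the leukocyte adhesion molecule, stood at 1.08 and 20.95 CPM, Relb at 4.02 and 30.7 CPM, Birc3 at 9.27 and 49.3 CPM and Nfkbia, the inhibitor that NF-kB itself induces, at 17.8 and 72.7 CPM. Il1r1, the receptor for IL-1, stood at 8.34 and 9.49 CPM, a ratio of 1.14 (0.85 to 1.52), which counting error alone does not separate from 1. In the interferon and MHC class I list, 5 of 10 were higher (50.0% against 4.89% of all genes), but only 1 of the 6 with the minimum in control alone (16.7% against 2.91%). That gene was H2-D1, with a ratio of 2.37, and 1.95 in cells of at most 25% mitochondrial UMIs. The higher ones included the immunoproteasome genes Psmb8 (6.32 and 27.9 CPM) and Psmb9 (2.01 and 8.08 CPM). Reads of H2-K1 and H2-D1, which are close in sequence, may be shared between them. Of 6 complement and acute phase genes, 4 were higher (66.7% against 4.89% of all genes), namely the fibrinogen chain genes Fga, Fgb and Fgg, and C3, whose ratio of 3.50 was 1.76 in thinned cells. None of these 4 had the minimum in control alone. The 3 fibrinogen genes stood at 4.81 and 33.9, 1.22 and 22.5, and 5.75 and 41.9 CPM, and in PT cells Fgb stood at 20.9 and 531 CPM. Edn1, which encodes endothelin-1, stood at 2.01 and 26.0 CPM, and Hbegf, an EGF receptor ligand, at 12.9 and 109 CPM. In the list of EGF ligands and receptors, Hbegf was higher, Egf lower and the other 5 genes lay between, and among 6 vasoactive and endocrine genes Edn1 was higher and Kl and Egf lower. These were 14.3% higher and 14.3% lower in the EGF list, and 16.7% and 33.3% in the vasoactive list. Of all genes, 4.89% were higher and 3.82% lower.

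Mitochondrial genes encoded in the nucleus had list medians below that of all genes. All 22 nuclear genes of the respiratory chain list were compared, 2 were lower (Cycs, 592 and 269 CPM, and Atp5g1, 1589 and 792 CPM), 0 higher, and the median log2 ratio was −0.69. This was 9.09% of the list against 3.82% of all genes. Atp5g1, at a ratio of 0.498, came to between 0.501 and 0.526 under 4 alternatives. The 13 mitochondrially encoded genes had a median of −0.11 with 0 higher and 0 lower. Of 18 genes of mitochondrial biogenesis and oxidation, 5 were lower (Ckb, Idh2, Idh3a, Esrra and Ppara) and 0 higher, 27.8% against 3.82% of all genes, with a median of −0.79. In the same 3 ranges of share, 10, 3 and 3 of the 18 were at least 2-fold lower. The share of all genes was not computed within each range, so nothing is read from these 3 counts. Idh3a and Esrra came to 0.52 and 0.53 with the control mix of Slc12a3 shares. Ppargc1a, the coactivator of mitochondrial biogenesis, stood at 308 and 169 CPM, and Esrrg, its nuclear receptor partner, at 1050 and 637 CPM. Of 20 glycolysis and hypoxia genes 1 was higher, the oxygen sensor gene Egln3 (ratio 2.29, and 1.85 with the control mix), and 0 lower, a share near the 4.89% of all genes. Of 17 antioxidant genes, Mt2 (391 and 1042 CPM) and Hmox1 (6.11 and 13.3 CPM) were higher, 11.8% of the list, and 0 lower. Of 16 immediate early genes, Klf6, Maff and Fosl2 were higher, of 13 heat shock genes Hspb1 and Hspb8, of 10 p53 targets Cdkn1a, Gadd45a and Gadd45b, and of 5 cell cycle genes Mcm6, with 0 lower in each list. These were 18.8%, 15.4%, 30.0% and 20.0% of their lists against 4.89% of all genes. With the minimum in control alone, 1 of 13 immediate early genes, 1 of 12 heat shock genes, 3 of 10 p53 targets, 0 of 3 cell cycle genes and 1 of 16 antioxidant genes were higher, against 2.91% of all such genes. Maff, Fosl2, Hspb8, Mcm6, Egln3 and Hmox1 had under 100 UMIs in control. In cells of at most 25% mitochondrial UMIs, Hmox1, Gadd45a and Gadd45b had ratios of 1.56, 1.92 and 1.93. Of 13 unfolded protein response genes and of 82 cytosolic ribosomal protein genes, 0 were higher and 0 lower, with medians of −0.16 and 0.37.

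**Figure D3:**
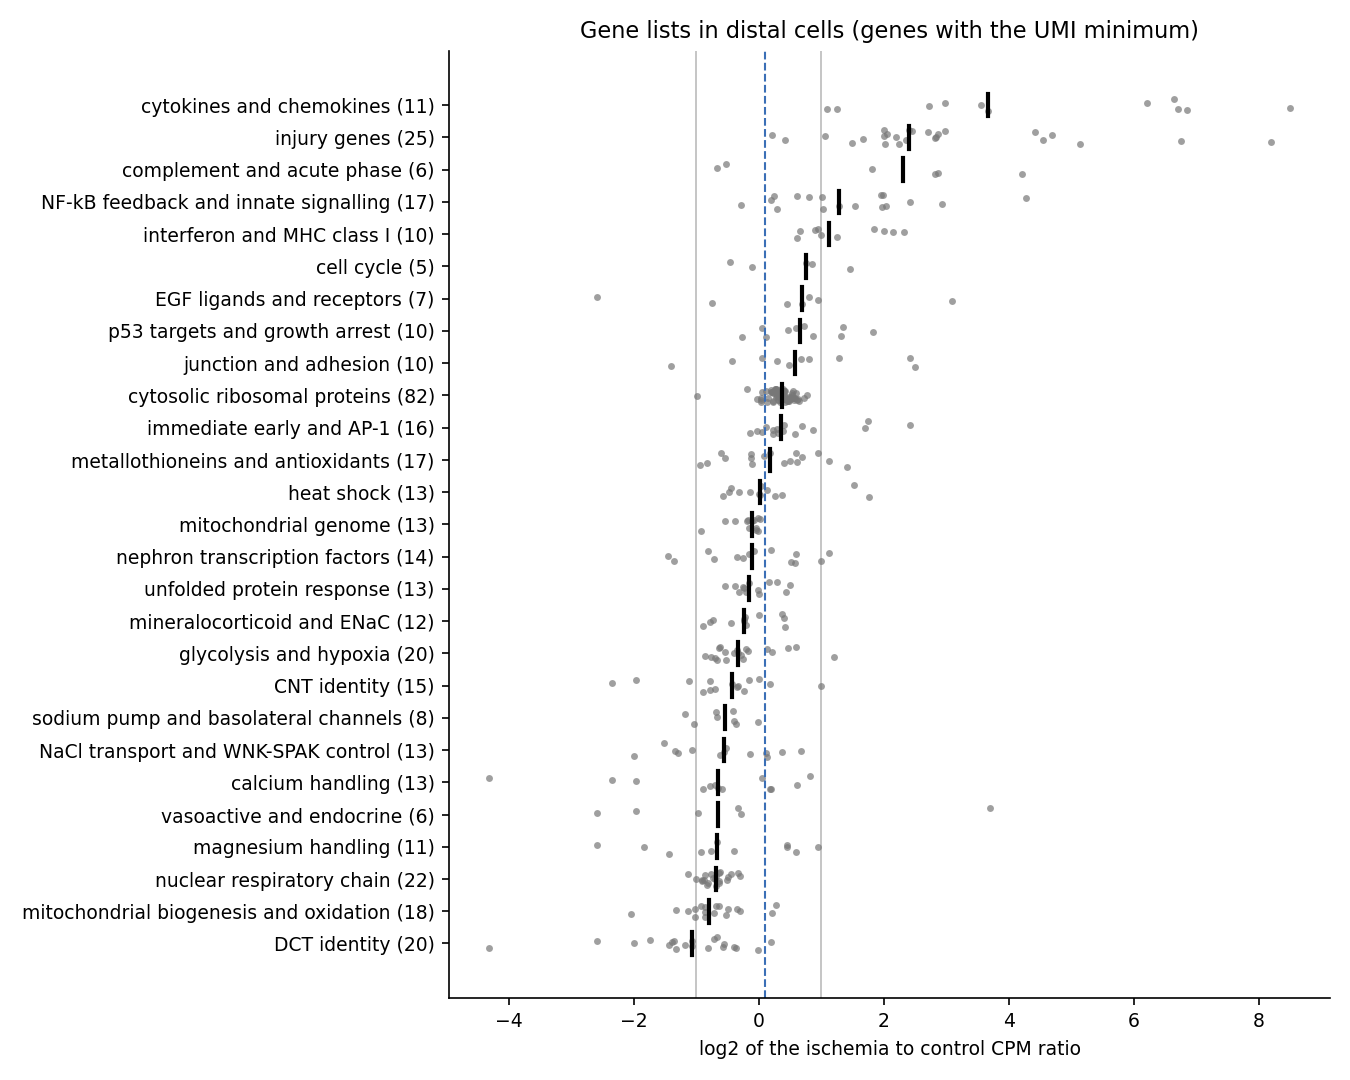
Each grey point is a gene of the list named on the y axis (number of genes with at least 100 UMIs in brackets), at its log2 ratio of ischemia to control CPM on the x axis; genes with 0 control UMIs stand at the ratio to the floor of 3 counts. Black bars are list medians, from −1.07 for DCT identity to 3.66 for cytokines and chemokines (9 of its 11 genes had under 100 UMIs in control), the dashed line is the median of all genes at 0.10, and the grey lines mark 2-fold.

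A further 20 genes were named on each side for the strongest bound of their ratio, among genes present in at least 10% of the cells of the library with the higher level. Besides genes of the lists, the higher ones included Il1f6, the cornified envelope gene Sprr1a (0.36 and 171 CPM, ratio 477, interval 204 to 1470), the B7 family gene Vtcn1, the aldose reductase-like gene Akr1b8, the transcription factor gene Creb5, the protease gene Adamts1 and the small GTPase gene Rrad. The lower ones included Slc5a12, Pck1 and G6pc, which are genes of the PT, and Slc12a1 of the TAL (21.8 and 1.2 CPM), whose level the rule capped. They also included Tfrc, the transferrin receptor (194 and 32.3 CPM), Uroc1, a histidine catabolism enzyme (116 and 19.4 CPM), Wfdc15b (489 and 95.8 CPM), the lipase gene Lpl (220 and 44.4 CPM) and Ckb, brain-type creatine kinase (347 and 83.7 CPM).

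The promoters of these 40 genes were set side by side as the genes farthest apart between the libraries by this rule. RefSeq windows of 300 bases (GRCm38.p6, 250 before to 50 after a transcription start) were found for 16 genes of each side, 19 windows for the higher and 23 for the lower genes. Il1f6, Anxa3, 4932411K12Rik, Rrad, Slc5a12, Dusp15, Lpl and Gm45847 were not matched. The letters TGANTCA, the AP-1 motif, which reads the same on both strands, occurred in 8 of the 19 windows and 0 of the 23, and in 7.81% of all 32851 windows. The genes with it were Sprr1a, Lif, Cxcl10, Vtcn1, Creb5, Havcr1, Plaur and Fgb. The letters TCAAGGTCA, the motif of estrogen-related receptors, occurred in 0 of either and in 0.423% of all. An NF-kB motif, searched in a narrow fixed form and counted in the same way, occurred in 0 of the 19 windows, 2 of the 23 and 1.63% of all. Other forms of the NF-kB motif were not searched. The 0 therefore does not show that the windows of the higher genes, that of Cxcl10 among them, lack an NF-kB motif. The motifs were chosen after the genes were known, and a match is not a site of binding. The 250 bases before the start of 4 higher genes with the AP-1 letters and of Pvalb and Egf, which lack them, are printed 5′ to 3′ on the strand of the gene, with TGANTCA in capitals.
Sprr1a, chr3:92485882-92486131, minus strand: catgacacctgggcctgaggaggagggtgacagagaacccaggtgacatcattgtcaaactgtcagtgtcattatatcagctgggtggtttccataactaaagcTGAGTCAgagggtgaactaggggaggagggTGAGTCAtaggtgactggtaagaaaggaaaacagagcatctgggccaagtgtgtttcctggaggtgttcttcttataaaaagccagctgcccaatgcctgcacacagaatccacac
Cxcl10, chr5:92348890-92349139, minus strand: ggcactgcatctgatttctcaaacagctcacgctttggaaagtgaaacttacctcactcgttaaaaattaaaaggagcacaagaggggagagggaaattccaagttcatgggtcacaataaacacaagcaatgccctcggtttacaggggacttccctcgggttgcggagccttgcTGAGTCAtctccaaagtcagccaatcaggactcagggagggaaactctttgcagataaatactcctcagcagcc
Lif, chr11:4257318-4257567, plus strand: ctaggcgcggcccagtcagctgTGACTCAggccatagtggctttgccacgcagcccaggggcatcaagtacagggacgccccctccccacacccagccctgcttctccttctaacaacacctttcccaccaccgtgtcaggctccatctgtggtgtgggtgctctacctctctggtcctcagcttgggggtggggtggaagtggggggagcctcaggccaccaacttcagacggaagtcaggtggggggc
Fgb, chr3:83049864-83050113, minus strand: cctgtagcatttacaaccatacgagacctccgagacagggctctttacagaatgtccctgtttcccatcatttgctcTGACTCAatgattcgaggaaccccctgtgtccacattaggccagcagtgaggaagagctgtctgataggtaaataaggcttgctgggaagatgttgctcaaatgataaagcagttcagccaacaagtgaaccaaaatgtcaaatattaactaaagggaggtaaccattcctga
Pvalb, chr15:78206401-78206650, minus strand: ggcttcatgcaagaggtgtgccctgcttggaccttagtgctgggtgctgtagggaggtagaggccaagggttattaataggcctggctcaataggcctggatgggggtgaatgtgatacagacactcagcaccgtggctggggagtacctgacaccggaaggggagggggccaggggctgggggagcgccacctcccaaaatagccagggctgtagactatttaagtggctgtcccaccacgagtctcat
Egf, chr3:129755323-129755572, minus strand: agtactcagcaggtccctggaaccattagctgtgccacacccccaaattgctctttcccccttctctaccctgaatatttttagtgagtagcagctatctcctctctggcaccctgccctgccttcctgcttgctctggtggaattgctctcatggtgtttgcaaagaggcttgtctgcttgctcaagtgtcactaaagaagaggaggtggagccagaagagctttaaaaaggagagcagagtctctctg

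Il1f6, the gene with the highest ratio among those with a control UMI, encodes the IL-1 family cytokine IL-36 alpha and lies on chr2:24215418-24225702 (GRCm38, plus strand). It had 1 UMI in control and 1921 in ischemia, or 0.07 and 210 CPM, a ratio of 2917 with a counting interval of 523 to 115293. In control, 1 of 739 cells had a UMI, and in ischemia 96 of 419. With every cell thinned to 3000 UMIs, 0% of control and 13.6% of ischemia members kept a UMI, against 0% and 0.344% of PT cells. The UMIs were unevenly spread, as 42 cells with at least 10 UMIs held 91.9% of them, the richest cell had 206, and the 5 richest held 38.3%. TAL cells stood at 0.22 and 27.6 CPM, principal cells at 0 and 1.80 CPM and PT cells at 0.04 and 0.49 CPM.

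The 96 ischemia cells with an Il1f6 UMI were set beside the 323 without as a description chosen after these values were seen, with median depths of 24255.5 and 19219 UMIs. Slc12a3 was close between them, at 2514 and 2800 CPM. Lcn2 stood at 5148 CPM in cells with Il1f6 and 1179 CPM in cells without, Sprr1a at 464 and 62.9 CPM, Ccl20 at 243 and 16.4 CPM, Lif at 57.0 and 8.37 CPM and S100a6 at 509 and 145 CPM. Spp1 (49341 and 36448 CPM), Clu (10077 and 11094.5 CPM) and Havcr1 (21.8 and 26.5 CPM) differed far less. Several genes of the segment stood lower in cells with Il1f6, among them Slc8a1 at 222 and 1368 CPM, S100g at 3040 and 11262.5 CPM, Wnk1 at 201 and 760 CPM and Klhl3 at 50.1 and 125 CPM. Of the 96 cells, 82 had a Slc12a3 share above 80%, and the depth and the range of the share both moved with this split, so their part in it was not tested.

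To follow the cells from DCT to CNT, they were ordered by the share of Slc12a3 in the UMIs of Slc12a3, Calb1 and Trpv5. This is a range cut from counts and not a cell type. Above 80% were 310 control and 237 ischemia cells, from 20 to 80% 240 and 98, and below 20% 188 and 83, while 1 cell of each library had none of the 3 genes. Within 5 points of a limit lay 33, 61 and 14 control cells and 9, 22 and 1 ischemia cells of the 3 ranges. Since Calb1 was lower in ischemia, cells may have moved up the range, and that cannot be told apart from another mix of cells. Pvalb marked the upper ranges in control, at 401, 443 and 8.50 CPM from the highest share to the lowest, and stood at 17.6, 24.7 and 0 CPM in ischemia, lower in each. Slc8a1 ran the other way in control, at 759, 6674 and 10242 CPM, and stood at 281, 1732 and 2524 CPM in ischemia, with ratios of 0.37, 0.26 and 0.25. Kl had ratios of 0.34, 0.34 and 0.30. These genes were thus lower in every range.

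Other genes differed in ratio along the range. S100g stood at 849, 17698 and 33320 CPM in control and 1321, 20214 and 19037 CPM in ischemia, ratios of 1.56, 1.14 and 0.57, so its ratio was below 1 only in the range with the lowest share. A ratio above 1 was not particular to members, since S100g had ratios of 2.96 in TAL, 2.16 in principal and 2.13 in PT cells. Klk1, the tissue kallikrein of the CNT, had ratios of 1.59, 1.73 and 0.80, and Scnn1b 3.11, 1.95 and 0.97. Abca13 had ratios of 0.25, 0.79 and 0.26, and Tmem52b 0.33, 0.72 and 0.64. Among the higher genes, Il1f6 stood at 314, 118 and 17.2 CPM in ischemia and Lcn2 at 3425, 925 and 371 CPM, while Sprr2f was found almost wholly in the lowest range, with 574 of its 579 UMIs. Clu stood at 8266, 9353 and 19406 CPM.

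**Figure D4:**
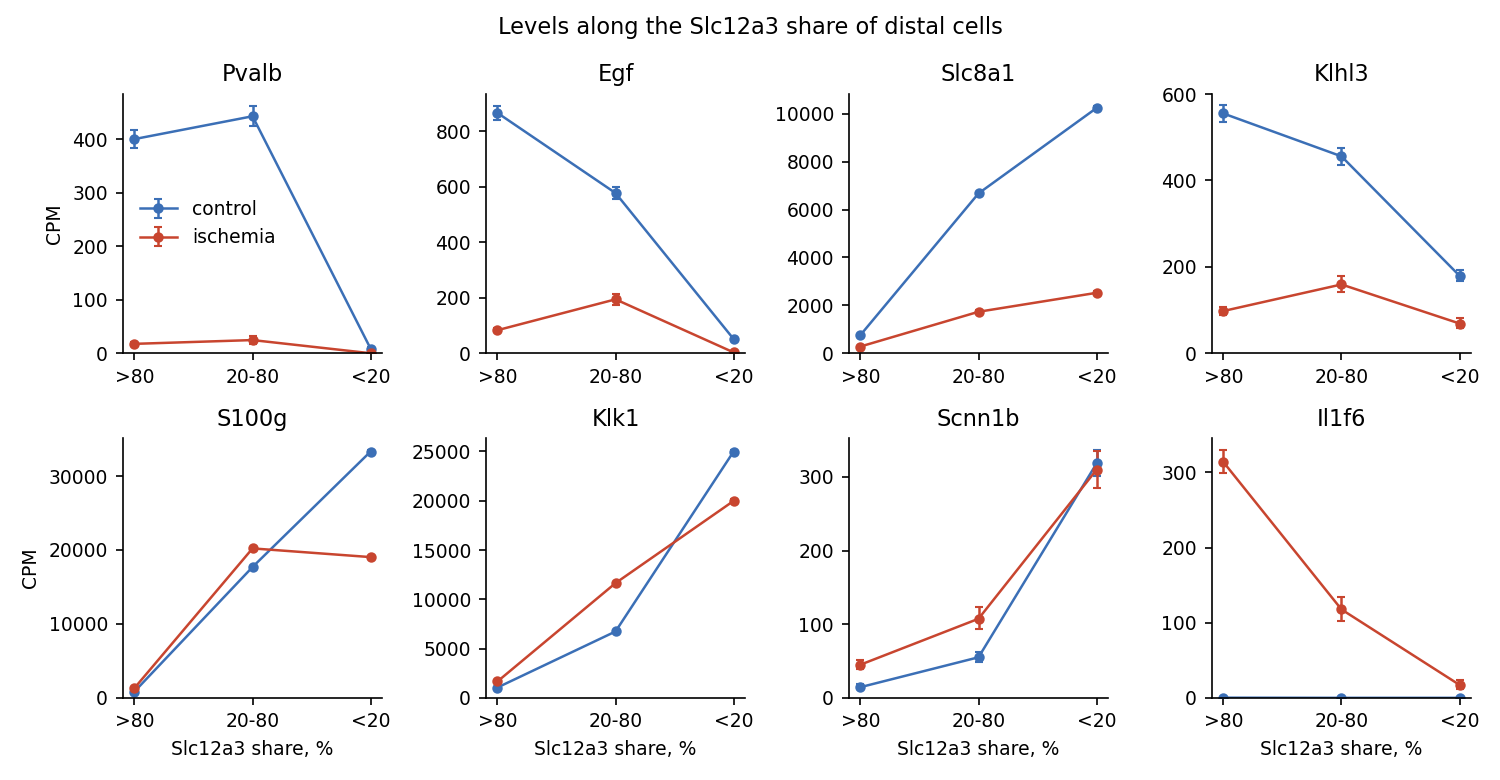
CPM (y axes, from 0) of 8 genes in member cells with a Slc12a3 share above 80%, of 20 to 80% and below 20% (x axes), for control (blue) and ischemia (red) with 95% Poisson intervals. Pvalb, Egf, Slc8a1 and Klhl3 are lower in ischemia in every range, S100g and Klk1 cross over, Scnn1b meets in the lowest range, and Il1f6 is near 0 in control and in ischemia stands at 314 CPM above 80%.

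The same ratios were computed in the neighbouring classes, with 784 control and 645 ischemia TAL cells, 125 and 122 principal cells, and 3397 and 2035 PT cells. Of 10459 genes compared in TAL cells, 6.51% were at least 2-fold higher and 6.44% at least 2-fold lower. In principal cells these were 3.64% and 5.83% of 7257 genes, and in PT cells 4.72% and 3.83% of 12442. Differences between classes are given as the distal ratio divided by that of the other class, with a counting interval and no test. Slc8a1 had a ratio of 1.07 in TAL and 1.55 in principal cells, so the distal ratio was 0.18 (0.17 to 0.20) and 0.13 (0.12 to 0.14) times theirs. In PT cells, where it was scarce, it was 0.30. Kl stood at 118 and 115 CPM in TAL cells, a ratio of 0.97, and the distal ratio was 0.26 (0.24 to 0.28) times that. Wnk1 had ratios of 0.62 in TAL, 0.57 in principal and 1.05 in PT cells, and the distal ratio was 0.33 (0.32 to 0.35) times that of PT. Egf was lower in all of them, and in TAL cells more so, at 2413 and 57.9 CPM, a ratio of 0.024. Ckb was lower in all 4 classes, with ratios between 0.17 and 0.24.

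On the higher side, Lcn2 separated the classes by control level as much as by ratio. TAL cells held Lcn2 at 407 and 4931 CPM, principal cells at 2485 and 9631 CPM and PT cells at 5.41 and 43.1 CPM, so the ischemia level of the distal cells, 2251 CPM, lay below both neighbours while its ratio was the highest of the 4. Cxcl16 had ratios of 1.31, 1.11 and 1.95 in TAL, principal and PT cells against 11.7 in distal cells, and its control level was the lowest in distal cells, 5.82 CPM against 35.5, 106 and 27.3 CPM. Cldn3 had ratios of 1.97, 1.82 and 1.49 against 5.34 in distal cells. Clu went the other way, with ratios of 19.0 in TAL and 24.5 in principal cells against 6.49. Spp1 was higher in every class, by 6.57-fold to 10.8-fold.

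**Figure D5:**
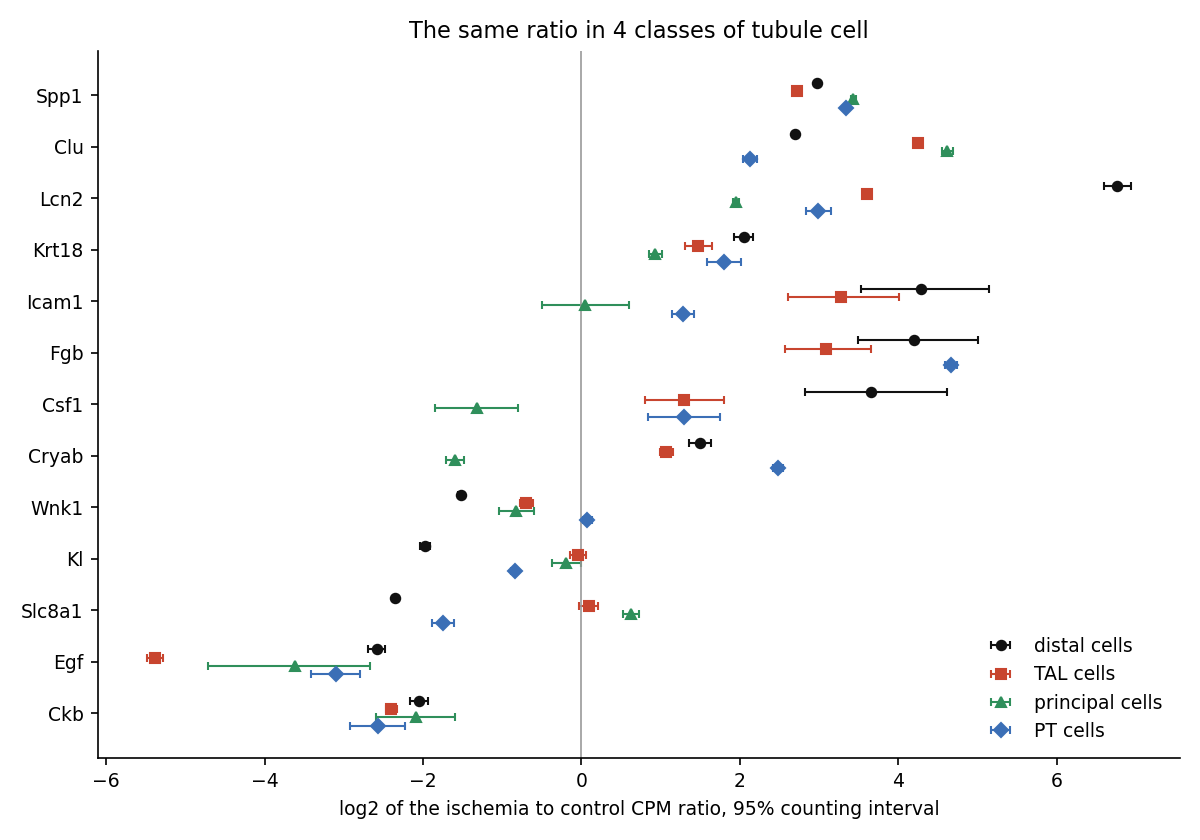
Log2 of the ischemia to control CPM ratio (x axis) with its 95% counting interval for 13 genes (y axis) in distal (black circles), TAL (red squares), principal (green triangles) and PT cells (blue diamonds); a class is shown where the gene had at least 100 UMIs in it and at least 1 in control. Lcn2 and Csf1 are farthest right in distal cells, Kl and Slc8a1 farthest left, and Csf1 and Cryab lie left of 0 in principal cells.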

How the data were processed

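Single-cell RNA was counted in 1 control and 1 ischemia library. The submitters' processing notes name Cell Ranger 7.0.0 and the mm10 (GRCm38) genome, and the deposited values are raw UMI counts per gene and barcode, to which the authors applied no normalization. Here, member cells were gated as described, their UMIs summed per library and scaled to CPM with exact 95% Poisson intervals. CPM ratios have exact conditional binomial intervals, ratios between classes log-normal ones. All cover counting error only, and UMIs of 1 library are not replicates. A gene counted as higher or lower at a ratio of at least 2 or at most 0.5 with at least 100 UMIs over both libraries, the 4 summed rule genes left out and the capped ones kept as a description. A gene at 0 UMIs was set to a floor of 3 counts. Genes named are members of the lists other than those of cell type markers, and 15 class genes of the control library. They also include the 20 genes with the highest lower bound of the ratio and the 20 with the lowest upper bound. Both sets were found in at least 10% of cells. Members and lists were chosen with earlier results of these data known. Doublets were kept, and Scrublet called 1.81% of control and 1.43% of ischemia cells. Cells in classes gated alike served for comparison. In pooled Poisson counts simulated for 10076 genes, 95.5% of intervals of the control and ischemia ratio held the true value. The intervals assume such counts, so this checked the calculation only. The simulation left out the uneven spread of UMIs over cells. Alternatives changed the mitochondrial, UMI and marker limits, scaling, thinning to 3000 UMIs, doublets, the gene minimum, the range mix and the richest cells. Python 3.11.15, numpy 2.4.6, pandas 2.3.3, scipy 1.17.1, scanpy 1.11.5 and matplotlib 3.10.9 were used. Some results are not reported here.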

Additional observations from a re-analysis of the deposited data

Results flagged for a closer look

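The genes compared here were those named outside the marker lists of other cell types. Of 308, 0 were at least 2-fold higher in distal cells and at least 2-fold lower in TAL cells, or the reverse. Against principal cells there were 7 of 267, and against PT cells 1 of 300. Of the thin limb markers, which were not counted, Slc14a2 had ratios of 8.73 in distal, 0.021 in TAL and 0.12 in principal cells. In distal cells of the ischemia library, 5 cells held 94.6% of its UMIs. Akr1b3 had ratios of 2.01 in distal and 0.49 in principal cells. These differences were not tested, since each class has 1 library per condition, and intervals cover counting error only.

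Against principal cells, the distal ratio of ischemia to control was 31.5 times (16.1 to 61.7) that of principal cells for Csf1, the macrophage growth factor (12.6 against 0.40). It was 12.3 times (8.76 to 17.3) for Ccn2, a matricellular protein (4.76 against 0.39), 10.5 times (8.61 to 12.7) for Gadd45b (2.54 against 0.24), and 8.53 times (7.55 to 9.63) for the small heat shock protein gene Cryab (2.82 against 0.33). It was 7.61 times (4.61 to 12.6) for the NF-kB inhibitor gene Tnfaip3 (2.89 against 0.38), 7.14 times (4.52 to 11.3) for the CSF1 receptor ligand gene Il34 (2.12 against 0.30) and 4.75 times (3.96 to 5.68) for the nephron transcription factor gene Pax8 (2.18 against 0.46). Of the Csf1 UMIs in ischemia distal cells, 5 cells held 49.1%. In distal cells of at most 25% mitochondrial UMIs, the ratios of Cryab, Gadd45b, Il34 and Pax8 were 1.957, 1.93, 1.60 and 1.86. Against PT cells, the distal ratio for Fkbp11, an endoplasmic reticulum folding enzyme gene, was 0.066 times (0.052 to 0.084) theirs (0.18 against 2.80).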

How the results depend on the processing

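No paired analysis was possible because each condition has 1 library. Leaving out a replicate was not possible. No named gene past 2-fold crossed a ratio of 1 under the alternatives run. List medians near 0 changed sign: heat shock (0.02) ran down to −0.11 and was below 0 under 7 alternatives, immediate early genes (0.35) were at −0.19 and antioxidants (0.18) at −0.01 at 25% mitochondrial UMIs, and transcription factors (−0.12) were at 0.02 without cells rich in intercalated markers. With cells of at most 25% mitochondrial UMIs, 259 control and 171 ischemia members remained and 294 genes were higher, of which 252 were among the 494, while 365 were lower, of which 239 were among the 386. With cells thinned to 3000 UMIs, 166 genes were higher and 186 lower of 4125 compared, the median of the cytokine list was 4.91 and that of the complement list 1.61; at 25% mitochondrial UMIs the cytokine median was 4.44. With a minimum of 30 UMIs, 868 genes were higher and 635 lower, and with 300 UMIs 265 and 253. With 100 UMIs required in control alone, an alternative chosen after seeing the data, 252 genes were higher and 358 lower of 8674, and medians were 2.11 for cytokines (2 genes), −0.60 for complement (2 genes, reversed from 2.31) and −0.11 for cell cycle genes (3 genes). Fewer cells or UMIs leave fewer genes with the minimum. Of 82 higher and 44 lower named genes, 70 and 41 stayed past 2-fold at 25% mitochondrial UMIs, 80 and 39 when thinned, 78 and 38 with the control mix of Slc12a3 ranges, 78 and 44 under median-ratio scaling, and 81 and 43 without cells of at least 10 intercalated marker UMIs, an alternative chosen after seeing the data. Median-ratio scaling gave 413 higher and 476 lower genes in all, and leaving out the 5 richest cells per gene 487 and 502. Wnk4 went from 0.48 to 0.52 at 25% mitochondrial UMIs, 0.53 when thinned and 0.51 with the rule genes at 0.1% of UMIs or more, Bsnd to 0.52 and Tmem52b to 0.55 with the control mix, and C3 from 3.50 to 1.76 when thinned; the cause was not tested. Atp5g1, Avpr2, Ccn1, Cldn10, Cryab, Cx3cl1, Egln3, Esrra, Gadd45a, Gadd45b, H2-D1, Hmox1, Idh3a, Il34, Myd88, Nfkb1, Nfkbiz and Pax8 also came within 2-fold under at least 1 alternative. Depth limits the genes under 100 UMIs, Il6 and Tnf among them.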
